A study of Mus musculus with 7 samples.

Results

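The hypoxia-inducible factor (HIF) subunits and the enzymes that sense oxygen for them are 9 genes here, out of the 39017 genes counted in each library. They were chosen by name: the alpha subunits Hif1a, Epas1 and Hif3a, the beta subunit Arnt, the prolyl hydroxylases Egln1, Egln2 and Egln3, the asparaginyl hydroxylase Hif1an, and Vhl. Their mRNA was measured by RNA sequencing in 7 mouse fetal livers of the C57BL/6 strain at stage E12.5, in 3 groups. In the 2 TAF10KO livers Taf10 was flanked by lox sites and EpoCre was present, which expresses Cre recombinase under control of the erythropoietin receptor locus. Their titles give lox on both alleles, whereas the series text gives a lox and a KO allele. The 3 TAF10HET livers also carried EpoCre, with lox/wt alleles in replicate 1 and wt/ko alleles in replicates 2 and 3. The 2 WT livers were lox/lox and lacked Cre. TAF10KO therefore differs from WT in the Cre as well as in Taf10, and from TAF10HET in the Taf10 alleles. The driver is active in erythroid cells, so hepatocytes, endothelial cells and other non-erythroid cells of the liver are not its target. This concerns the lox alleles only, and the alleles in the titles do not tell which cells carry a ko allele. Taf10 encodes a subunit of the general transcription factor TFIID and of the SAGA coactivator.

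HIF is a dimer of an alpha and a beta subunit that activates genes when oxygen is low. In oxygen, EGLN prolyl hydroxylases modify the alpha subunit, the VHL ubiquitin ligase recognises the modified protein, and the proteasome destroys it, while the asparaginyl hydroxylase encoded by Hif1an keeps the remaining alpha subunit from binding its coactivators. When oxygen falls these enzymes slow, the alpha subunit accumulates, and among the genes that it then activates are Egln1 and Egln3 themselves, a negative feedback. The control of the alpha subunits is mainly on the protein, so an mRNA level does not measure HIF activity. In the fetal liver, which is then the main site of red cell production, HIF is known for its part in erythropoietin production and in the growth of vessels.

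The 7 libraries held 18008391 to 43401474 reads in genes. Every title holds a date-like code, read here as a shared day, which the labels do not state. The first code covers replicate 1 of each group, and the second covers TAF10KO replicate 2, TAF10HET replicates 2 and 3 and WT replicate 2. The code separated the libraries along the first principal component, which held 63.2% of the variance, and all tests therefore include it as a term. Taf10 itself stood at 37.8 and 43.8 CPM (reads scaled to a common library total with TMM factors) in TAF10KO, at 78.1, 63.7 and 63.0 CPM in TAF10HET and at 72.0 and 96.5 CPM in WT. The TAF10KO livers were the lowest, but the log2 difference from WT of -1.04 (SE 0.168) missed the threshold in edgeR's quasi-likelihood test (adjusted p = 0.0542), and so did that from TAF10HET (-0.73, adjusted p = 0.0782). Xist, the RNA of the inactive X chromosome, was at 1.40 CPM in TAF10KO replicate 2 and 2.64 CPM in TAF10HET replicate 1, against 1650 to 1950 CPM in the other 5 libraries, so the embryos were of mixed sex. The titles number the livers as separate ones and do not say whether they came from separate litters.

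All 9 genes were expressed in all 7 libraries and passed the filter on low counts, with the fewest reads for Egln3 and Epas1 (136 and 141 reads, both in TAF10HET replicate 3). Levels can be compared between genes only per kilobase of exon. As mean CPM per kilobase over the 7 libraries, Egln2 stood at 15.8 ± 1.01 (SD, n = 7), Hif3a at 14.7 ± 3.10, Egln1 at 13.6 ± 4.09, Hif1an at 11.2 ± 0.977, Hif1a at 11.0 ± 1.94 and Arnt at 9.87 ± 0.638. Vhl followed at 6.58 ± 0.752, Egln3 at 5.20 ± 4.42 and Epas1 at 2.71 ± 1.49. Between neighbours in this order the libraries overlapped, except between Arnt (8.73 to 10.4) and Vhl (5.77 to 7.48). The order depends on the length used: with the longest transcript in place of all exons, Arnt stood at 18.3, Egln2 at 21.01 and Hif1a at 13.8. Hif3a was thus among the more abundant of the 9 mRNAs by either length. The mean of Egln3 was raised by the 2 TAF10KO livers: Egln3 averaged 11.1 ± 4.46 CPM per kilobase in TAF10KO, 2.93 ± 0.0979 in TAF10HET and 2.73 ± 0.605 in WT (SD, n = 2, 3 and 2). Epas1 averaged 3.59 ± 2.44 in TAF10KO, 2.14 ± 1.002 in TAF10HET and 2.698 ± 1.72 in WT, so outside TAF10KO both genes had similar means, with Egln3 below Epas1 in TAF10HET replicate 1 and WT replicate 1.

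Among the prolyl hydroxylases, Egln1 and Egln3 were higher in TAF10KO than in WT and in TAF10HET, and Egln2 was not called in any comparison. Egln1 encodes PHD2, the hydroxylase that sets the level of HIF alpha proteins in most tissues. Egln2 encodes PHD1, and Egln3 encodes PHD3, known as the member that low oxygen induces most. Their promoters are shown because HIF binds the short core ACGTG, or its variant GCGTG, in genes that it activates. Another reason is that Egln1 and Egln3 were called higher in TAF10KO while Egln2 was not called. The sequences are those of RefSeq on build GRCm38.p6, from upstream of the annotated start to shortly after it, written 5′ to 3′ on the gene's own strand. The Egln1 window is chr8:124949205-124949504, that of Egln2 is chr7:27166753-27167052 and that of Egln3 is chr12:54203825-54204124, all on the minus strand. Capitals mark both cores on either strand.
Egln1: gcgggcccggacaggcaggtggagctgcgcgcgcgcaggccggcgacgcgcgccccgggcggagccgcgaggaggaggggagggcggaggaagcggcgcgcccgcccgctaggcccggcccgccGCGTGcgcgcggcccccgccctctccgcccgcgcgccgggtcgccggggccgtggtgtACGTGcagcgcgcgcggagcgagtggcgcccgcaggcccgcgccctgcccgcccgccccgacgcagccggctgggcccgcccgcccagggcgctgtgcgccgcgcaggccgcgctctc
Egln2: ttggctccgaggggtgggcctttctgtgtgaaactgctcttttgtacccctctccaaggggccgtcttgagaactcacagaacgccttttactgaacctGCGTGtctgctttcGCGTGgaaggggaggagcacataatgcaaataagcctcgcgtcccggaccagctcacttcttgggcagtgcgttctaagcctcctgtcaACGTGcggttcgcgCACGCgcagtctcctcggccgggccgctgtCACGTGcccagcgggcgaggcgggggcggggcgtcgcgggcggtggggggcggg
Egln3: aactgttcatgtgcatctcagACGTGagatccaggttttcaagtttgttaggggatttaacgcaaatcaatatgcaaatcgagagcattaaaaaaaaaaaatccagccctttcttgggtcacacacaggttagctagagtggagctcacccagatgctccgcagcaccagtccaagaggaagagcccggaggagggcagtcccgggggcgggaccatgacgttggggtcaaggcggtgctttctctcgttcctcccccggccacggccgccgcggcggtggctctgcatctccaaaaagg
Counting both strands, the Egln1 window held 2 matches and was 86.0% G and C, that of Egln3 held 1 match, and that of Egln2 held 6, of which 2 are the opposite strands of a single palindromic CACGTG. A match is a description of the letters, not of binding. Of 32817 windows of this kind over all genes, 43.8% held at least 1 match of either core, 20.6% held 2 or more and 0.692% held 6 or more. Egln2 had the most matches of the 3 and was not called, and whether matches bear on the mRNA differences was not tested. Sequence outside these windows was not examined. In the windows of the other genes the matches numbered 3 for Hif1a, 2 for Hif3a, 1 for Arnt and 0 for Hif1an and Vhl. For Hif1a too, 2 of the matches are the opposite strands of a single CACGTG. A further annotated start of Egln2 held 1. Epas1 was not among the promoters analysed here.

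Egln1 (ENSMUSG00000031987, mm10 chromosome 8, 124908587 to 124949324, minus strand) stood at 66.4 and 72.0 CPM in TAF10KO, against 36.6, 44.8 and 45.9 CPM in TAF10HET and 33.3 and 42.8 CPM in WT. Both TAF10KO libraries lay above all 5 others. The log2 difference was 0.87 from WT (SE 0.0885, 95% interval 0.67 to 1.08, adjusted p = 0.0129, edgeR) and 0.76 from TAF10HET (SE 0.0805, adjusted p = 0.0102). Within the date codes the difference from WT was 0.99 on the first and 0.75 on the second, 1 library a group.

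Egln3 (ENSMUSG00000035105, chromosome 12, 54178981 to 54203860, minus strand) stood at 21.1 and 37.9 CPM in TAF10KO, against 7.50, 7.92 and 7.98 CPM in TAF10HET and 6.12 and 8.40 CPM in WT. The groups did not overlap, and the TAF10KO libraries differed more from each other than the 5 others did among themselves. The log2 difference was 2.00 from WT (SE 0.188, 95% interval 1.56 to 2.43, adjusted p = 0.0102, edgeR) and 1.95 from TAF10HET (SE 0.165, adjusted p = 0.00457). Within the date codes the difference from WT was 1.77 and 2.17.

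Egln2 (ENSMUSG00000058709, chromosome 7, 27158658 to 27166802, minus strand) stood at 46.5 and 40.9 CPM in TAF10KO, against 44.6, 47.5 and 46.9 CPM in TAF10HET and 40.9 and 42.6 CPM in WT. The groups overlapped in both TAF10KO comparisons, and the 95% interval of the log2 difference from WT ran from -0.16 to 0.29 around 0.07 (adjusted p = 0.755, edgeR). That interval lies below the interval of Egln1. Its exons share 11 bases with Cyp2t4 on the other strand, and the strand setting of the authors' counting is unknown.

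**Figure D1:**
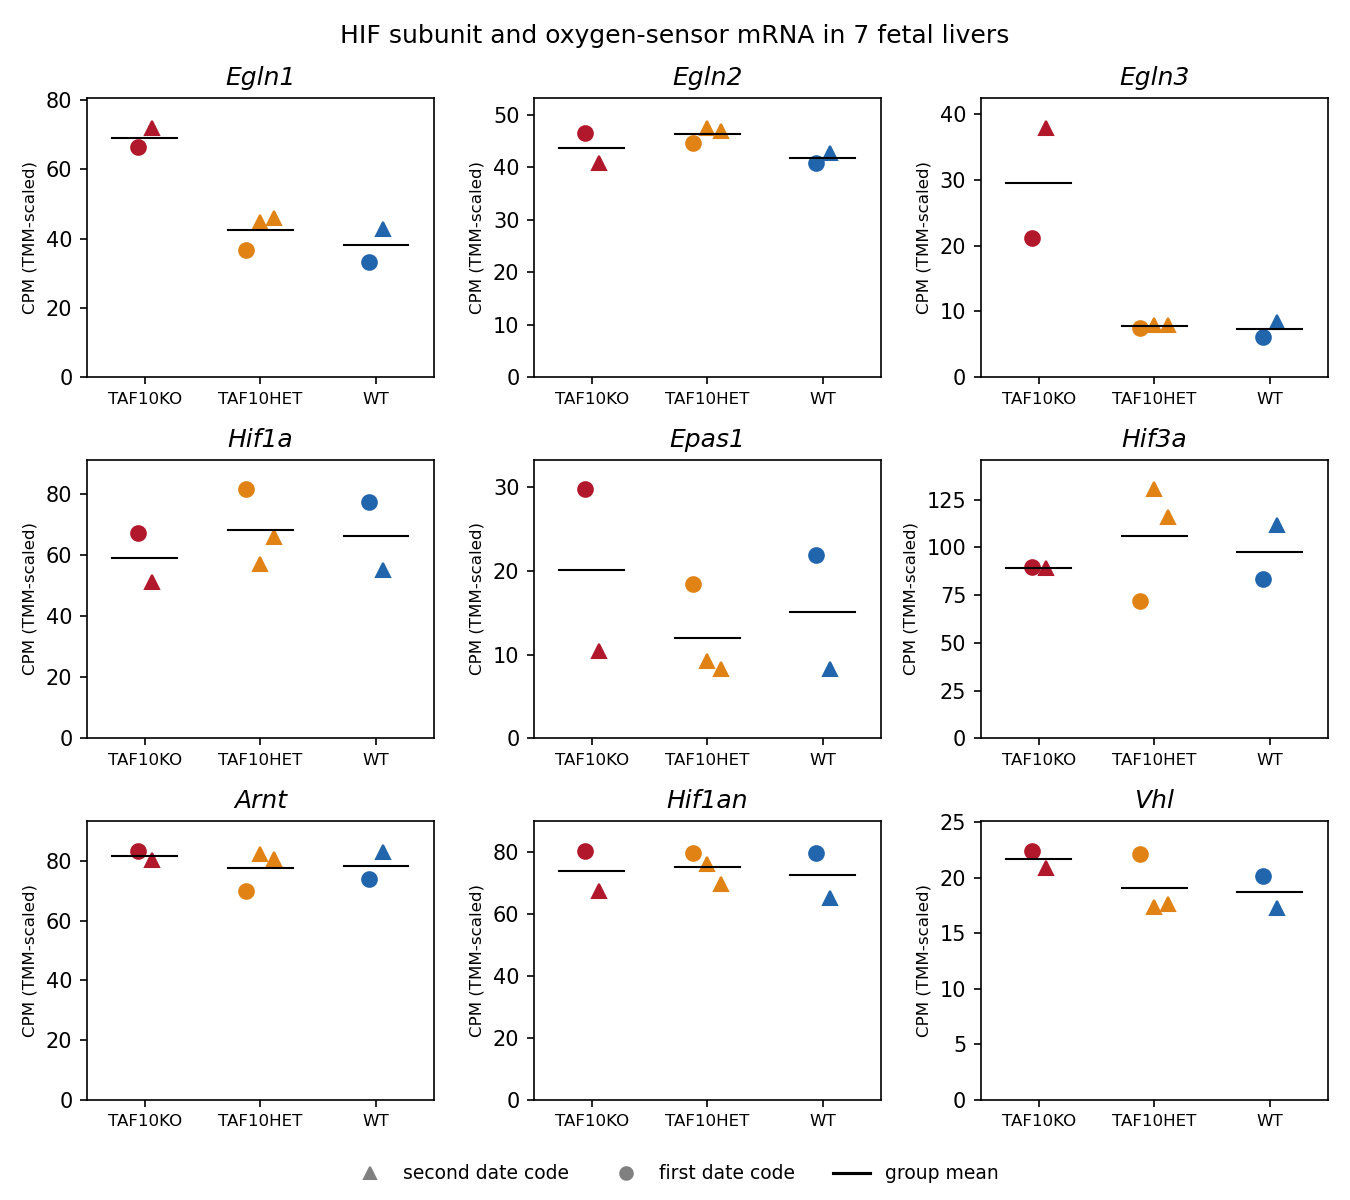
Each panel plots the CPM of 1 gene in the 7 livers, by genotype; triangles are the second date code, circles the first, and the line is the group mean. Egln1 and Egln3 are higher in both TAF10KO livers than in all 5 others, while Hif1a and Epas1 lie lower in the triangles than in the circles of every group.

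The make-up of the hydroxylase mRNA pool followed from these levels. Per kilobase, the summed level of the 3 genes was 43.0 and 48.9 CPM in TAF10KO, against 28.9, 32.4 and 32.5 CPM in TAF10HET and 26.2 and 30.3 CPM in WT. Egln2 was the most abundant of the 3 in all TAF10HET and WT livers, at 50.3% to 55.8% of the sum, and held 38.6% and 29.9% in TAF10KO, where Egln1 was the most abundant with 42.9% and 41.0%. Egln3 held 18.4% and 29.2% of the sum in TAF10KO, against 8.79% to 10.4% in the other 5 livers. The summed level of the 3 alpha subunits was 30.1 and 23.8 CPM per kilobase in TAF10KO, against 27.9, 30.8 and 30.0 in TAF10HET and 29.4 and 27.5 in WT, with overlapping groups. These shares were not tested, and they depend on the length used: with the longest transcript, TAF10KO replicate 1 had more Egln2 (22.1 CPM per kilobase) than Egln1 (18.5), and TAF10KO replicate 2 had 19.4 of Egln2 and 20.04 of Egln1.

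**Figure D2:**
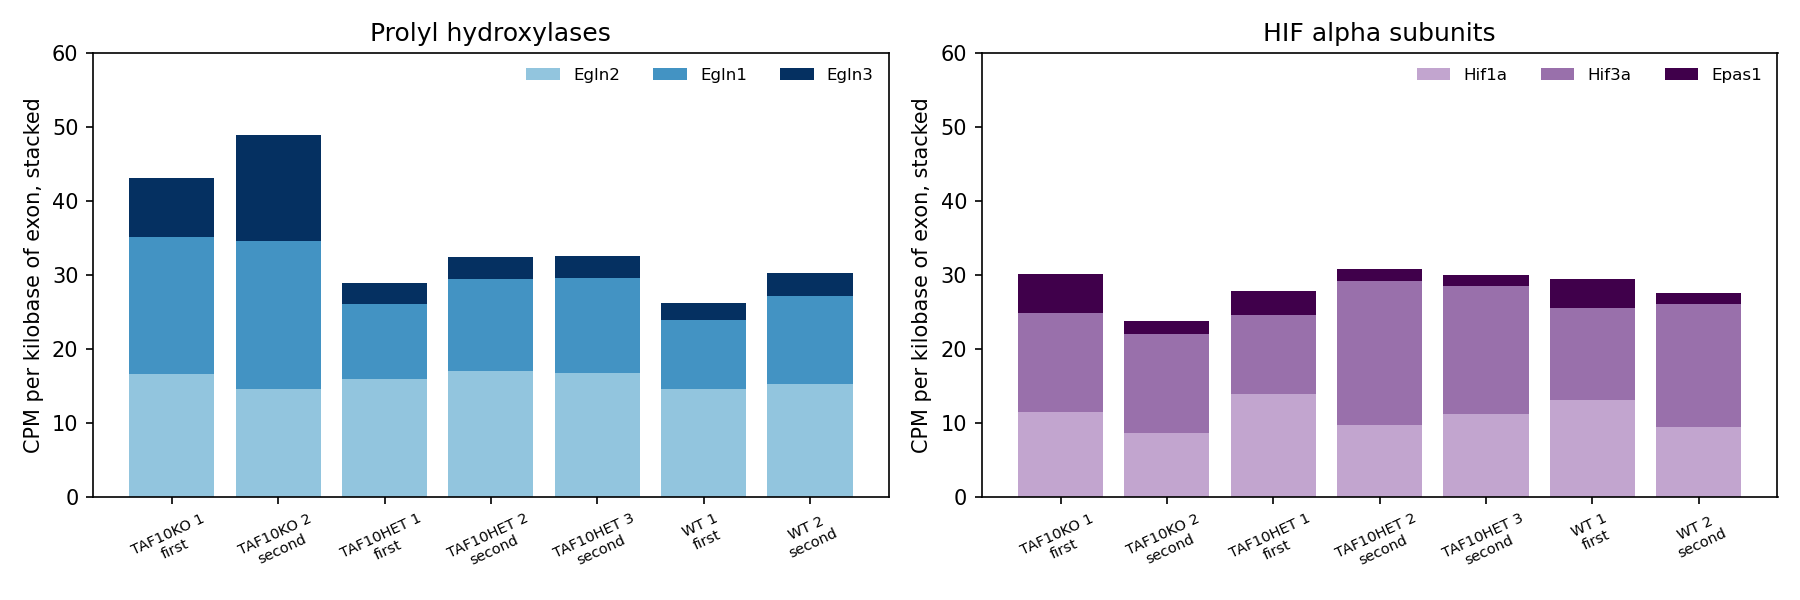
Stacked bars give CPM per kilobase of exon for the prolyl hydroxylases (left) and the HIF alpha subunits (right) in each liver, with its date code under the name. The hydroxylase stacks of TAF10KO reach 43.0 and 48.9, above those of the 5 other livers, and the alpha subunit stacks overlap between groups.

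None of the 3 alpha subunits was called in a comparison of genotypes. Hif1a (ENSMUSG00000021109, chromosome 12, 73901375 to 73947530, plus strand), which encodes the broadly expressed HIF-1 alpha, stood at 67.3 and 51.1 CPM in TAF10KO, against 81.5, 57.0 and 65.8 CPM in TAF10HET and 77.2 and 55.2 CPM in WT. The groups overlapped, and within each date code the TAF10KO liver had less than the WT liver, by -0.20 and -0.11 on the log2 scale. The fitted difference from WT was -0.16 (95% interval -0.36 to 0.05, adjusted p = 0.395, edgeR), and that from TAF10HET was -0.27 (95% interval -0.46 to -0.08, adjusted p = 0.153). Its exons share 330 bases with the antisense gene Gm15283, so without a known strand setting a part of its reads is uncertain.

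Epas1 (ENSMUSG00000024140, chromosome 17, 86753700 to 86833410, plus strand) encodes HIF-2 alpha, the subunit prominent in endothelial cells. It stood at 29.7 and 10.4 CPM in TAF10KO, against 18.4, 9.24 and 8.27 CPM in TAF10HET and 21.9 and 8.30 CPM in WT. The livers of the first date code held more than those of the second in every group, and within each code the TAF10KO liver was the highest. The log2 difference was 0.39 from WT (SE 0.142, adjusted p = 0.228, edgeR) and 0.44 from TAF10HET (adjusted p = 0.158), with differences from WT of 0.44 and 0.32 within the date codes. The 12 endothelial markers were summed beside it. They came to 618 and 299 CPM in TAF10KO, against 431, 272 and 240 CPM in TAF10HET and 456 and 230 CPM in WT, and none of the 12 was at 0 in any library. Per 100 CPM of these markers, Epas1 stood at 4.80 and 3.47 CPM in TAF10KO, against 4.28, 3.40 and 3.44 in TAF10HET and 4.80 and 3.61 in WT. On that scale the TAF10KO livers lay within or at the edge of the range of the others on the same date code. The markers are not a neutral scale. Tek, Cdh5, Flt1 and Kdr are also in the list of endothelial genes linked to EPAS1, and Flt1 and Pecam1 were themselves called higher in TAF10KO than in WT. The part of endothelial content in the Epas1 level was not tested. In whole liver RNA, fewer cells of a type and less RNA per cell cannot be told apart.

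**Figure D3:**
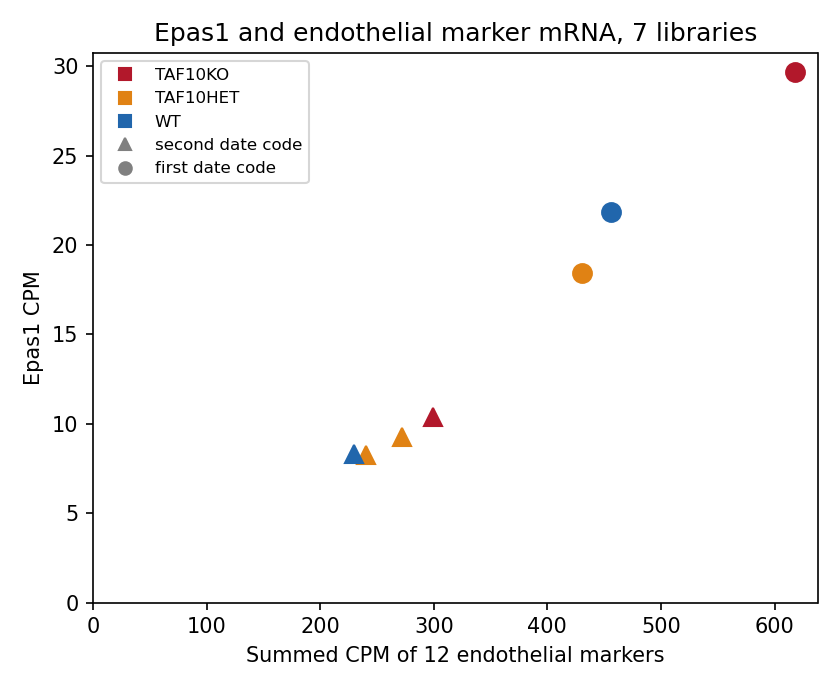
Epas1 CPM (vertical) is plotted against the summed CPM of 12 endothelial markers (horizontal) in the 7 livers, coloured by genotype, with triangles for the second date code and circles for the first. The 4 livers of the second code lie at 10.4 CPM of Epas1 or less and the 3 of the first at 18.4 CPM or more.

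Hif3a (ENSMUSG00000004328, chromosome 7, 17031507 to 17062427, minus strand) encodes an alpha subunit with splice forms that restrain the other HIFs. It stood at 89.8 and 89.1 CPM in TAF10KO, against 72.1, 130.4 and 116.2 CPM in TAF10HET and 83.3 and 111.8 CPM in WT. On the first code the TAF10KO liver was the highest and on the second it was the lowest, with log2 differences from WT of 0.11 and -0.33. The pooled difference was -0.09 (95% interval -0.51 to 0.32, adjusted p = 0.818, edgeR). A test of whether the difference between TAF10KO and WT itself differed between the codes, which has 1 residual degree of freedom, gave -0.44 for Hif3a (adjusted p = 0.163), -0.25 for Egln1 (0.366) and 0.39 for Egln3 (0.415). It called 0 of the 9 genes, 1 of them (Hif3a) at an unadjusted p of 0.00898, and 181 of all genes tested. Of the alpha subunit mRNA per kilobase, Hif3a held 44.5% and 55.8% in TAF10KO, against 38.6%, 63.2% and 57.8% in TAF10HET and 42.2% and 60.6% in WT. These counts do not separate its splice forms.

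Arnt (ENSMUSG00000015522, chromosome 3, 95434388 to 95497240, plus strand) encodes HIF-1 beta, the partner of all 3 alpha subunits and of the dioxin receptor. It stood at 83.3 and 80.2 CPM in TAF10KO, against 69.9, 82.3 and 80.8 CPM in TAF10HET and 73.9 and 82.8 CPM in WT. The groups overlapped, and the log2 difference from WT was 0.07 (95% interval -0.14 to 0.27, adjusted p = 0.736, edgeR). Over all 7 livers Arnt ranged from 69.9 to 83.3 CPM.

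The asparaginyl hydroxylase Hif1an, known as FIH (ENSMUSG00000036450, chromosome 19, 44562850 to 44576274, plus strand), stood at 80.4 and 67.5 CPM in TAF10KO, against 79.6, 76.0 and 69.7 CPM in TAF10HET and 79.8 and 65.1 CPM in WT. The groups overlapped, and the log2 difference from WT was 0.03 (95% interval -0.16 to 0.22, adjusted p = 0.886, edgeR). Vhl (ENSMUSG00000033933, chromosome 6, 113623959 to 113631633, plus strand), which encodes the subunit of the ubiquitin ligase that recognises hydroxylated HIF alpha, stood at 22.4 and 20.9 CPM in TAF10KO, against 22.1, 17.4 and 17.7 CPM in TAF10HET and 20.2 and 17.3 CPM in WT. Its TAF10KO livers lay just above both WT livers and overlapped TAF10HET. The log2 difference of Vhl was 0.21 from WT (SE 0.105, 95% interval -0.03 to 0.46, adjusted p = 0.335, edgeR) and 0.15 from TAF10HET (adjusted p = 0.456).

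Over the 9 genes, 2 were higher in TAF10KO than in WT and 0 were lower. Of the 15800 genes tested, 0.608% were called in this comparison and 0.481% were called higher. Against TAF10HET, 2 of the 9 were again higher and 0 lower, where 1.61% of all genes were called and 1.15% were higher. Both comparisons share the TAF10KO livers. Between TAF10HET and WT none of the 9 was called (adjusted p = 0.999 for each, edgeR), with log2 differences from -0.05 for Epas1 to 0.15 for Egln2. The TAF10HET livers lay above both WT livers in Egln2 alone, and the share of all genes that do so was not counted. Over all genes this last comparison called 0.00633%, which is the single gene Hbb-bt, an adult beta globin that shares reads with its near-identical copies (log2 2.71, adjusted p = 0.0245). Hbb-bt stood at 4967, 5411 and 4915 CPM in TAF10HET, against 967 and 693 CPM in WT and 1072 and 636 CPM in TAF10KO. Only the TAF10HET titles hold a wt allele, and the part of the alleles in this difference was not tested. The alleles of TAF10HET and the date code cannot be told apart.

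These calls need the date code as a term, and some are lost when 1 liver is left out, with little change in the differences. With group as the only term 0 of the 9 genes were called in any comparison of genotypes, while the differences stayed close, at 0.86 for Egln1 (adjusted p = 0.880) and 2.02 for Egln3 (0.843) against WT. With 1 WT liver left, that liver is assumed to vary like those of the other groups. Without WT replicate 1 the values were 0.79 and 1.98 (adjusted p = 0.255 and 0.247), without WT replicate 2 they were 0.94 and 2.00 (0.294 for each), and without TAF10HET replicate 3 they were 0.87 and 1.99 (0.0833 and 0.0512).

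**Figure D4:**
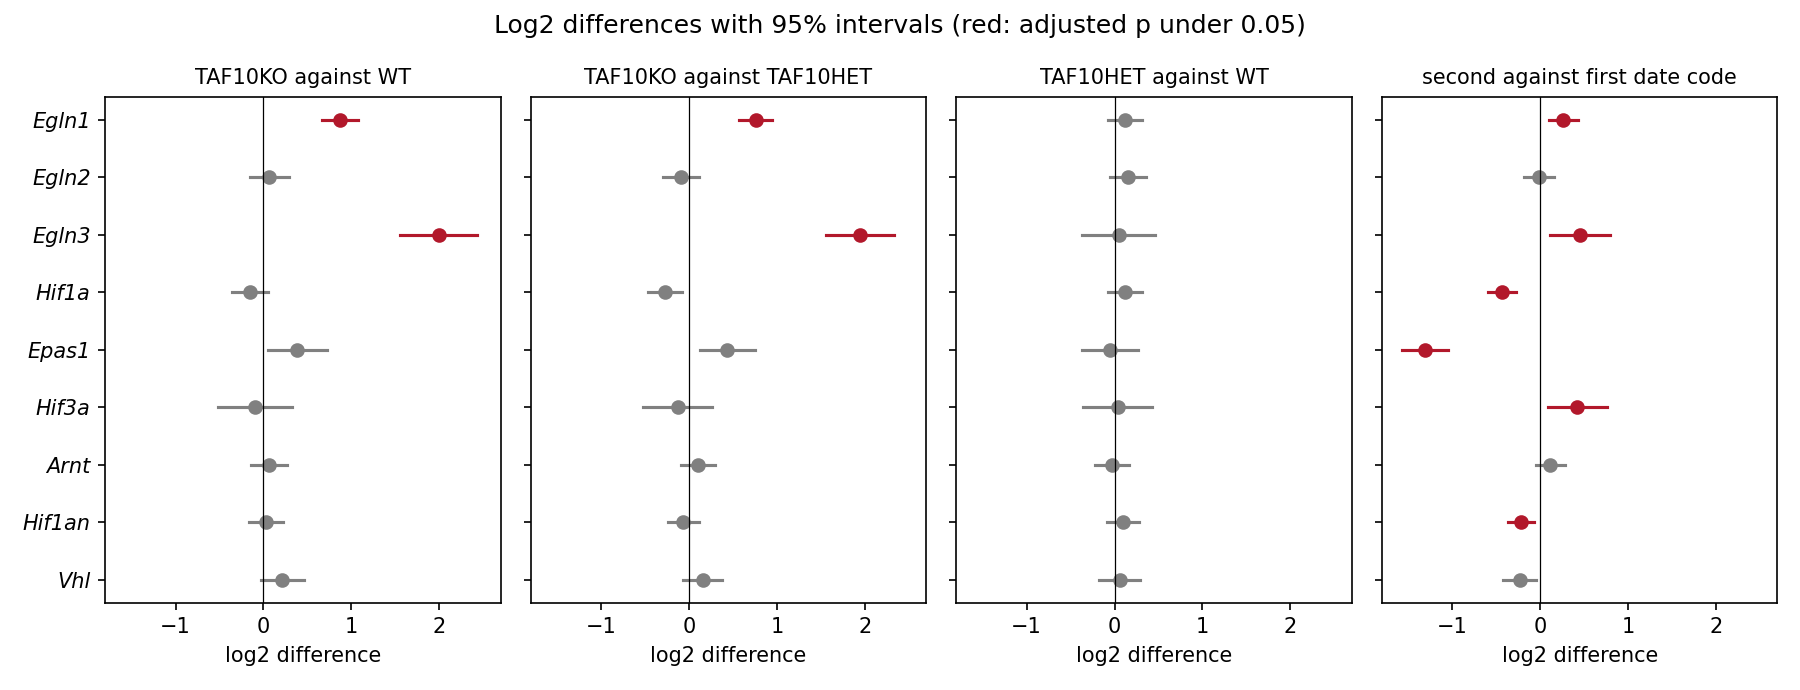
Points are log2 differences of the 9 genes from the fit with genotype and date code, with 95% intervals, for 3 comparisons of genotypes and that of the date codes; red marks an adjusted p under 0.05. Egln1 and Egln3 are red in both TAF10KO comparisons, none is red between TAF10HET and WT, and 6 are red between the date codes.

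More of these genes were called between the date codes than between genotypes. In the livers of the second code, against the first, Hif1a, Epas1 and Hif1an were lower and Hif3a, Egln1 and Egln3 were higher, and in this comparison 41.4% of all genes were called, 18.7% higher and 22.7% lower. The 6 of 9 called are read against that background. Epas1 was lower by a log2 difference of -1.31 (SE 0.112, adjusted p = 0.000305, edgeR), with -1.51 in TAF10KO, -1.07 in TAF10HET and -1.39 in WT. Hif1a was lower by -0.43 (SE 0.0679, adjusted p = 0.00281), with -0.40, -0.41 and -0.49 in the same order of groups. For both, and for Hif1an (-0.22, adjusted p = 0.0329), the 4 livers of the second code lay below all 3 of the first. How many of all genes separate the codes in this way was not counted, so this is a description of these genes only. The codes overlapped for Hif3a (0.42, adjusted p = 0.0475), Egln1 (0.26, adjusted p = 0.0200) and Egln3 (0.45, adjusted p = 0.0413), and these 3 calls and that of Hif1an were less stable. Within the groups the difference of Hif3a was -0.01 in TAF10KO, 0.77 in TAF10HET and 0.42 in WT, that of Egln1 was 0.12, 0.31 and 0.36, and that of Egln3 was 0.84, 0.08 and 0.45. Over 11 alternatives Hif3a was called in 6 (0.20 to 0.59), Hif1an in 6 (-0.28 to -0.18), Egln1 in 5 (0.18 to 0.30) and Egln3 in 4 (0.21 to 0.68). Without TAF10HET replicate 1 the difference of Hif3a was 0.20 (adjusted p = 0.192), and without TAF10KO replicate 1 or 2 that of Egln3 was 0.21 (0.214 and 0.236). Vhl (-0.23, adjusted p = 0.0544), Arnt (0.12, adjusted p = 0.207) and Egln2 (-0.01, adjusted p = 0.940) were not called.

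Markers of cell types moved with the date code in the same livers. All 12 endothelial markers were lower on the second code (median log2 difference -0.94), as were all 12 mesenchymal markers (-2.53) and 10 of 12 hepatocyte markers (-0.45), while 9 of 12 erythroid markers were higher (0.54). Of 11 macrophage markers 7 were lower and 1 was higher (-0.51), of 9 neutrophil markers 3 were higher and 0 lower (0.23), and of 9 megakaryocyte markers 2 were higher and 0 lower (0.20). The summed mesenchymal markers came to 375 to 506 CPM in the 4 livers of the second code, against 1708 to 2859 CPM in the 3 of the first. Defining markers of all 7 cell types examined were above 0 in all 7 livers. Their part in the differences of the 6 genes was not tested.

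Between TAF10KO and WT fewer of these markers were called. Of the endothelial markers 2 of 12 were higher (median 0.50), namely Flt1, a receptor of vascular growth factor (1.18, adjusted p = 0.0244), and Pecam1, an adhesion protein (0.64, adjusted p = 0.0438). Of the erythroid markers 1 of 12 was lower (median -0.31), the transferrin receptor Tfrc (-0.84, adjusted p = 0.0438). The summed erythroid markers came to 22799 and 33414 CPM in TAF10KO, against 30295, 44327 and 36165 CPM in TAF10HET and 28914 and 44735 CPM in WT, lowest in TAF10KO within each date code. The hepatocyte, mesenchymal, macrophage, neutrophil and megakaryocyte lists had 0 called genes, with medians of -0.22, 0.55, -0.43, 0.69 and 0.22. Their most abundant members stood at -0.10 (Afp), 0.58 (Col3a1), 0.45 (Lyz2), 0.37 (S100a9) and 0.44 (Itga2b). The median of all genes was 0.03. Against TAF10HET 3 of 12 endothelial markers were higher (median 0.41), Flt1, Pecam1 and the receptor gene Kdr, and 1 of 12 erythroid markers, Tfrc, was lower (-0.34). Of the neutrophil markers 2 of 9 were higher (0.67), Mpo and Prtn3, and of the macrophage markers 1 of 11 was lower (-0.52), C1qa. The hepatocyte, mesenchymal and megakaryocyte lists had 0 called genes there, with medians of 0.01, 0.08 and 0.34. For the 11 genes of the immediate-early and heat-shock list, known to respond to handling, the differences of TAF10KO from WT had a median of 0.60 with 0 called. Dusp1, the most abundant of them, stood at -0.26, and Fosb was at 0 in at least 1 library. The part of any of these lists in the differences of Egln1 and Egln3 was not tested.

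By profile over the 7 livers, measured as the root mean square difference between centred log2 CPM values, the genes most like Egln1 were Gm12070 (0.0873), the glycolytic enzyme gene Pgam1 (0.106) and the acetylcholine receptor subunit gene Chrnb2 (0.106). Pgam1 is also in the list of HIF targets described next. The deviation of Egln1 from its own mean was 0.383 on that measure. The genes most like Egln3 were the circadian repressor gene Ciart (0.22), Fam131a (0.223) and the cystine transporter gene Slc7a11 (0.245), against a deviation of 0.896 for Egln3 itself. These distances grow with the spread of the gene itself, so those of Egln1 and Egln3 are not comparable with each other.

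The genes that HIF is known to activate were listed apart from the 9. Of 50 such genes, 23 were higher in TAF10KO than in WT, 0 were lower and 27 were not called (median log2 difference 0.97). Of all genes tested, 0.481% were called higher in that comparison. Against TAF10HET 29 were higher, 0 lower and 21 not called (0.97), where 1.15% of all genes were called higher. Between TAF10HET and WT 0 of the 50 were called (-0.02). The list holds genes already known from these libraries, so its direction is not independent evidence. Their summed level was 11360 and 14481 CPM in TAF10KO, against 5930, 8470 and 7974 CPM in TAF10HET and 6341 and 8216 CPM in WT. Within the date codes 47 of 50 were higher in TAF10KO than in WT on the first and 48 on the second, with 45 on both. These are signs of differences between single libraries, and the share of all genes that do so was not counted. With group as the only term 0 of the 50 were called.

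The 8 with the smallest adjusted p against WT span mitochondria, glycolysis and secreted factors. Ndufa4l2, which encodes a mitochondrial protein, averaged 28.5 ± 18.8 CPM in TAF10KO and 3.24 ± 2.31 CPM in WT (SD, n = 2 each), a log2 difference of 3.18 (adjusted p = 0.00314, edgeR). Bnip3, a mitophagy receptor, stood at 1.49. The glycolytic enzymes Aldoa, Pkm, Pgk1 and Hk2 stood at 1.41, 1.30, 1.13 and 1.04, and Aldoa and Pgk1 have close copies in the genome that make their counts less certain. Igfbp1, a binding protein of insulin-like growth factors, averaged 149.9 ± 3.51 CPM in TAF10KO and 35.2 ± 5.07 CPM in WT (2.10, adjusted p = 0.00894). Vegfa, the vascular growth factor, averaged 127.2 ± 6.49 CPM in TAF10KO and 53.0 ± 7.70 CPM in WT (1.27, adjusted p = 0.00623). Egln3 lay among the larger differences of these targets and Egln1 near their median.

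**Figure D5:**
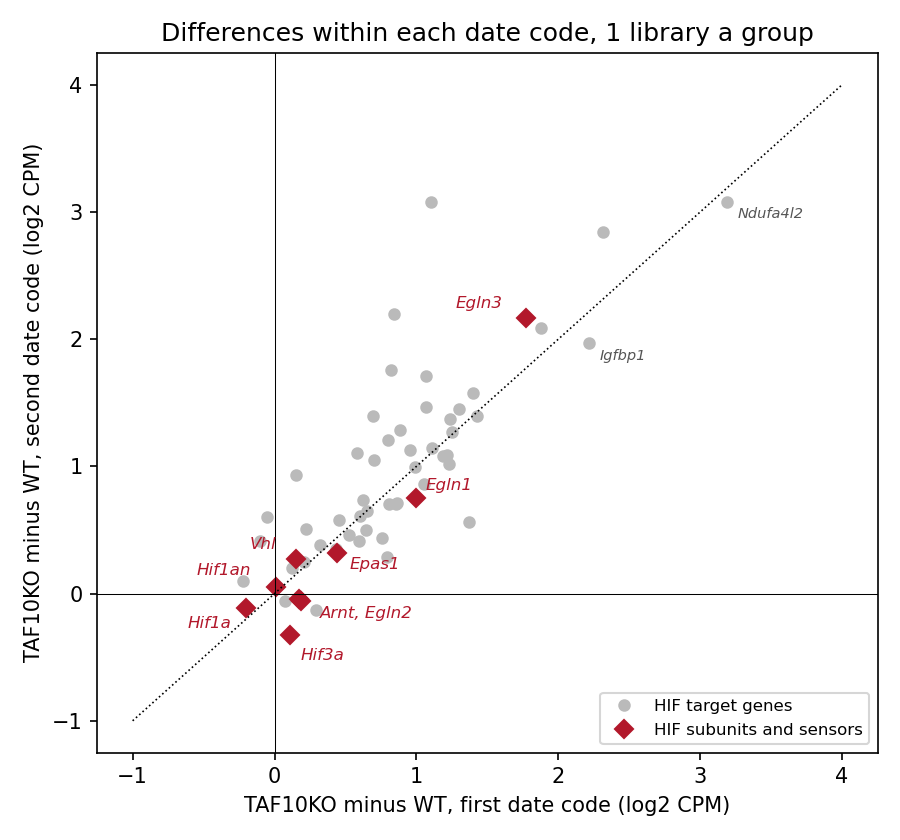
Each point is a gene, with its log2 CPM difference of TAF10KO from WT on the first date code (horizontal) and on the second (vertical), 1 library a group; red diamonds are the 9 subunits and sensors, grey circles the 50 HIF targets, and the dotted line marks equal differences. Egln3 lies at 1.77 and 2.17 and Egln1 at 0.99 and 0.75, and the other 7 genes lie at or below 0.44 on both axes.

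The rest of the machinery around HIF was examined by lists of genes. Of 12 genes of the VHL ligase and of HIF alpha turnover, 0 were called between TAF10KO and WT (median -0.15). Elob, which encodes the elongin B subunit of the ligase, stood at -0.13 (adjusted p = 0.420, edgeR). Of 10 partners and coactivators 0 were called (median 0.14), with the chaperone gene Hsp90ab1 at 0.08. Of the 8 tested among 11 other bHLH-PAS genes, the family to which the HIF subunits belong, 0 were called (median 0.02), with Clock at -0.13; Sim1 and Sim2 were at 0 in at least 1 library. Against TAF10HET these 3 lists also had 0 called genes. In a list of 10 endothelial genes linked to EPAS1, 1 was higher (median 0.54), again Flt1, and against TAF10HET 2 were higher and 1 was lower.

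EGLN enzymes belong to the 2-oxoglutarate dioxygenases, which need oxygen, iron and 2-oxoglutarate. Among 23 other members of that family, 3 were higher in TAF10KO than in WT and 0 lower (median 0.35). They were P4ha1, a collagen prolyl hydroxylase (0.99, adjusted p = 0.0126), and the histone demethylase genes Kdm6b (0.81, adjusted p = 0.0204) and Kdm3a (0.68, adjusted p = 0.0376). P4ha1 and Kdm3a are also in the list of HIF targets, so the lists are not independent. Against TAF10HET 6 of the 23 were higher and 0 lower, the same 3 genes and Kdm4a, Kdm4b and Kdm5b. Between TAF10HET and WT 0 were called (median 0.03).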

How the data were processed

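RNA was prepared with Trizol from single-cell suspensions of fetal liver and made into Illumina TruSeq version 2 libraries, per the labels' protocols. The submitters' processing notes name TopHat2 2.0.8, DESeq2 and mm10. Counter, annotation release and strand setting: not given in the sources used here. The deposited values are raw read counts per Ensembl gene, 1 library per file. The authors' summary lines were left out of totals and tests: reads in no gene were 6.81% to 10.1% of all, ambiguous reads 3.98% to 5.94% and reads aligned to several places 14.1% to 22.2%. Symbols came from GENCODE M21, which matched 37607 of 39017 identifiers; the 1410 unmatched held 0.212% of reads in genes.

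The tests used edgeR 4.0.16 in R 4.3.3 (filterByExpr by group, TMM, robust quasi-likelihood F test, two-sided), on all 7 libraries with group and date code as terms. P-values were adjusted over the 15800 genes tested by Benjamini-Hochberg, at a threshold of 0.05. The prior count of log2 CPM was 2. The SE is the log2 difference over the square root of F. The biological coefficient of variation was 13.4% with the date code and 33.9% with group only. As a check of the pairing, deviations from group means were correlated over genes: 8 pairs with the same code gave 0.40 to 0.74 and 8 pairs with different codes -0.74 to -0.40; in groups of 2 they mirror each other by construction. Counts for TAF10KO against WT were also simulated from the mean levels of the real fit, with the same spread for all genes. Most of the larger changes put into them were recovered, which does not show recovery at the spread of the real livers. No 2 libraries of the same group were copies by a chi-square test of counts, and pairs from different groups were not compared. Alternatives were group only, median-of-ratios factors, DESeq2 1.42.0, no filter, only the groups compared, and each library left out.

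The 9 genes, the lists and the use of the date code were chosen with earlier results of these data known. The text names Taf10 and the 9 genes, up to 8 called HIF targets of smallest adjusted p in TAF10KO against WT, up to 2 called genes of each other list or its most abundant gene where none was called, and the 3 genes most like each called gene. Hbb-bt and the genes given to complete a count of 6 or fewer were named after their values were seen.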

Additional observations from a re-analysis of the deposited data

Results flagged for a closer look

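Among the 4 livers of the second date code, TAF10KO replicate 2 stood apart in 3 of the 9 genes. Within that code genotype, sex and liver cannot be told apart. TAF10KO replicate 2 is its only TAF10KO liver and alone had little Xist there (1.4 CPM). The gap between it and the nearest other liver, as a share of the whole range in log2 CPM, was 0.963 for Egln3 (37.9 CPM, against 7.92, 7.98 and 8.40), 0.895 for Vhl (20.9 CPM, against 17.4, 17.7 and 17.3) and 0.866 for Egln1 (72.0 CPM, against 44.8, 45.9 and 42.8). Each share is above Dixon's 95% critical value for 4 samples, which chance passes in about 1 of 20 groups of like samples. These 4 livers differ in genotype and are not like samples, so that rate does not apply to them. For Egln1 and Egln3 the rule also uses values that entered the calls of TAF10KO above, so it adds no separate evidence. How many of all genes pass the same rule was not counted, so the 3 of 9 have no background beside them. The first date code, with 3 livers, was not examined in this way. There TAF10KO replicate 1 had 1950 CPM of Xist, with Egln1, Egln3 and Vhl at 66.4, 21.1 and 22.4 CPM. TAF10HET replicate 1 had 2.64 CPM of Xist, with 36.6, 7.50 and 22.1 CPM of these genes. WT replicate 1 had 1650 CPM of Xist, with 33.3, 6.12 and 20.2 CPM. The part of sex in these levels was not tested.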

How the results depend on the processing

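Without the replicate block (group as the only term), TAF10KO against WT, TAF10KO against TAF10HET and TAF10HET against WT each called 0 genes, with 729, 854 and 96 at an unadjusted p under 0.05, and 0 of the 9 genes. The main counts were 96, 254 and 1 of all genes and 2, 2 and 0 of the 9. Between the date codes, date as the only term called 3 of the 9 genes, against 6. TAF10KO against WT called 570 genes with DESeq2, 1399 with no filter and 553 with only the groups compared. TAF10KO against TAF10HET called 674, 1498 and 26 under these settings, and 1 of the 9 genes with only the groups compared. TAF10HET against WT called 14, 289 and 7. Leaving out 1 library, which where it leaves a lone liver takes the spread from the other groups, gave 0 to 1282, 16 to 1203 and 0 to 13 genes in these comparisons, and 0 to 2, 0 to 2 and 0 of the 9. Egln1 and Egln3 lost their calls against WT without WT replicate 1, WT replicate 2 or TAF10HET replicate 3. Against TAF10HET both lost them without TAF10HET replicate 3, and Egln1 also with only the groups compared (adjusted p = 0.0765) and without WT replicate 1, WT replicate 2 or TAF10HET replicate 2. Between the date codes it gave 3206 to 7303 genes and 2 to 7 of the 9. Over the 12 alternatives the log2 difference from WT ran from 0.77 to 0.95 for Egln1 and from 1.65 to 2.28 for Egln3, each called in 8. Against TAF10HET it ran from 0.67 to 0.84 (called in 6) and from 1.57 to 2.21 (called in 10). Epas1 was called against TAF10HET with no filter alone (0.47, adjusted p = 0.0280). Epas1 and Hif1a were lower on the second date code in all 11 alternatives run there and were called in each, while Hif3a and Hif1an were called in 6, Egln1 in 5 and Egln3 in 4. HIF targets called against WT numbered 40 with no filter, 35 with only the groups compared and 0 to 37 with 1 library left out, alternatives added after seeing the data. No called difference changed direction. The causes of these differences were not tested. Egln3 and Epas1 had the fewest reads, and 2 or 3 livers a group limit all comparisons.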
